A study of Mus musculus with 15 samples.

Results

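The 8 genes described here encode high-mobility-group (HMG) chromatin proteins, and they were taken by name from the 27803 genes with a count in any of the 15 tables: Hmgb1, Hmgb2, Hmgb3, Hmgn1, Hmgn2, Hmgn3, Hmga1 and Hmga2. The rule that names them uses no measured value, but it was written with earlier results of these data known. Their transcripts were counted by Drop-seq, which tags the 3′ ends of the mRNAs of single cells with barcodes and with unique molecular identifiers (UMIs), in 3 groups of 5 mice. The first group was untreated WT C57BL/6 cerebellum at day 7 after birth. The other groups were cerebellar tumors of mice with the genotype Math1-Cre:SmoM2/EYFPloxP/loxP (M-Smo), taken at day 15 after 3 daily injections, on days 12 to 14, of vehicle or of vismodegib at 75 mg per kg. In M-Smo mice a constitutively active Smo allele was switched on by Cre under a cloned Atoh1 promoter, so both tumor groups carried the same 2 alleles and the WT mice carried neither. Vismodegib is a small molecule that inhibits SMO. The paper states that all mice had a C57BL/6 background. WT cerebella and tumors differed in genotype, in age, in injection and in the microfluidic device, and only the tumor libraries had cultured human cells added. These differences cannot be told apart in any comparison between WT cerebella and tumors.

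HMG proteins are abundant chromatin proteins that are not histones. HMGB proteins bind and bend DNA through HMG boxes, HMGN proteins bind nucleosomes and compete there with linker histones, and HMGA proteins bind the minor groove of AT-rich DNA through AT-hooks and are high in embryonic tissue and low in most adult tissue. Cerebellar granule neuron progenitors (CGNPs) divide after birth in response to Sonic hedgehog, then leave the cell cycle and differentiate into granule neurons, and M-Smo tumors grow from this lineage. HMGB2 is best known from dividing cells, while HMGB1 is also released from damaged cells and then acts as a signal on surface receptors.

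On the GRCm38 build (GENCODE M21) the 8 genes lay on 8 chromosomes: Hmgb1 at chr5:149046702-149184489 (minus strand), Hmgb2 at chr8:57511907-57515999 (plus), Hmgb3 at chrX:71555918-71560676 (plus), Hmgn1 at chr16:96120618-96127729 (minus), Hmgn2 at chr4:133964738-133968650 (minus), Hmgn3 at chr9:83109948-83146685 (minus), Hmga1 at chr17:27556497-27563674 (plus) and Hmga2 at chr10:120361275-120476469 (minus). Hmgb2, Hmgb3, Hmgn1 and Hmgn2 overlapped no other gene. Hmgb1 shared its strand with Mm2pr and Gm8615, Hmga2 with Mir763, and Hmgb1, Hmgn3, Hmga1 and Hmga2 lay across from genes on the opposite strand.

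RefSeq start sites on GRCm38 were given for 7 of the 8 genes, with 2 starts each for Hmgb1 and Hmga1. For Hmgb1 the start farther upstream is shown. The 250 bases before the start are printed for Hmgb2, whose level differed most between phases, and for Hmgb1, Hmgb3 and Hmgn1, for which WT cerebella and vehicle-treated tumors did not overlap in CGNP-like cells. Hmga1, which also did not overlap there, is not printed. The bases are given in the direction of transcription, with the letters CCAAT (the CCAAT box, bound by NF-Y) and TTTGAA (the CHR element of many cell cycle genes, TTCAAA on the other strand) in capitals.
Hmgb2, chr8:57511593-57511842, plus strand: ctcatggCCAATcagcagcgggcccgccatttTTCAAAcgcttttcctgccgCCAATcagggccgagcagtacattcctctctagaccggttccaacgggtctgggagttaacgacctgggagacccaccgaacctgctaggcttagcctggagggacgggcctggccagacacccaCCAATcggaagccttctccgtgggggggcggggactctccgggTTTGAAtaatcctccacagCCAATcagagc
Hmgb1, chr5:149053058-149053307, minus strand: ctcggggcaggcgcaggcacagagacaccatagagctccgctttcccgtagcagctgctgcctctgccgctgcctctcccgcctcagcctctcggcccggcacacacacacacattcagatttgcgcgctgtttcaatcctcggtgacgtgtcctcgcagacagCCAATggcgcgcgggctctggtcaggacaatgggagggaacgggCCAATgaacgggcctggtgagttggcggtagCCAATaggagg
Hmgb3, chrX:71555667-71555916, plus strand: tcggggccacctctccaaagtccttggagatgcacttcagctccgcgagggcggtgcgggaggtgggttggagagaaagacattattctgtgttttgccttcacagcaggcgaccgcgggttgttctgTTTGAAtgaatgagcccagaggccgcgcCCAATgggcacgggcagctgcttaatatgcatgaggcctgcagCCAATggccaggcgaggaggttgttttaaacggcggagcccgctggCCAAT
Hmgn1, chr16:96127726-96127975, minus strand: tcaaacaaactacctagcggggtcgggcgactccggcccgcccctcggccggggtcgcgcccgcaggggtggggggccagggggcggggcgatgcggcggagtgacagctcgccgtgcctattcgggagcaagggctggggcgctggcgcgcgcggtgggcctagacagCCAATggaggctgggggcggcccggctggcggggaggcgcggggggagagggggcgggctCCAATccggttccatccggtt
In the 300 bases from 250 before to 50 after the start, CCAAT was found 4 times for Hmgb2, 3 times each for Hmgb1 and Hmgb3, 2 times for Hmgn1 and 1 time for Hmgn2, always on the strand of transcription. The other start of Hmgb1, whose window is chr5:149051567-149051866, had no match to any of the letters searched, and neither had the 2 starts of Hmga1. TTTGAA, on either strand, was found only for Hmgb2, which had 1 match on each strand, and for Hmgb3, which had 1. Of 32851 RefSeq promoters of the same length, 37.41% held CCAAT, 17.89% held TTTGAA, 1.062% held at least 4 CCAAT and 0.5449% held at least 3 CCAAT with TTTGAA. The letters GCGGGAA, an E2F site present in 4.6% of promoters, were found only for Hmga2, and GACCACCCA, a Gli site present in 0.2527%, for no member. Both strands were searched for all of these, and a match of letters is not a binding site.

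Each table held 2310474 to 17708677 UMIs, and 37946 of 51841 barcodes were kept as cells, of which WT cerebella gave 7224, tumors under vehicle 18293 and tumors under vismodegib 12429. Kept cells had a median of 1082.5 to 1625 UMIs per WT animal, 1141 to 2597 per vehicle-treated and 1183.5 to 2368 per vismodegib-treated animal. No pair of tables shared more than 13 barcodes. Tumor cells and WT cells were clustered separately, with the members and their near copies held out. Clusters were named by their markers against the other cells of the same clustering. Of all cells, 33262 were called CGNP-like and ordered into 4 stages named after the nodes of the study: Node A-like (clusters led by mitotic genes such as Ccnb1 and Ube2c), Node B-like (Atoh1 and replication genes such as Ccne2), Node C-like (Cntn2, Nhlh1, Tubb3) and Node D-like (Calb2, Pcp4). A tumor cluster of 2596 cells among the Node C-like and a tumor cluster of 636 cells among the Node A-like carried their names on a mean marker difference of only 0.24 and 0.29 on the log2 scale. The Node D-like cells of WT were a cluster of 977 cells. Its mean marker difference was 2.24 for Node D and 2.13 for unipolar brush cells. Its leading genes held Calb2 and Eomes, the paper's marker of unipolar brush cells, but not Pcp4. Phases were called in CGNP-like cells from S and G2/M genes without the members, and 8.523% of the cells lay within 0.02 of the cut.

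UMIs were also counted under near copies of the sequence of Hmgb1. How reads were assigned between Hmgb1 and these copies is not given, and transcription of the copies themselves was not tested. Gm10075, a processed pseudogene at chr1:19153422-19153966 (minus strand), shares 84.26% of its runs of 25 bases with Hmgb1 transcripts and held 45781 UMIs over all kept cells, against 8669 UMIs of Hmgb1 itself in WT, 10201 in vehicle-treated and 8382 in vismodegib-treated animals. Over all 15 copies listed, the copies held 61.44%, 68.07% and 64.23% of the UMIs of Hmgb1 and its copies in the same order, with a range over animals of 52.54% to 79.52%. In CGNP-like cells Hmgb1 itself held 37.65% ± 6.76 (SD, n = 5) of this sum in WT, 31.34% ± 7.48 in vehicle-treated and 31.44% ± 7.96 in vismodegib-treated animals. Hmgb1 values are therefore uncertain, and the differences with the copies added are given beside its main ones. For the other members the copies held little: at most 6.936% for Hmgb3, 5.648% for Hmgn2, 2.046% for Hmgn1 and 1.8% for Hmgb2 in any group, and no copy was found for Hmgn3, Hmga1 or Hmga2.

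**Figure D1:**
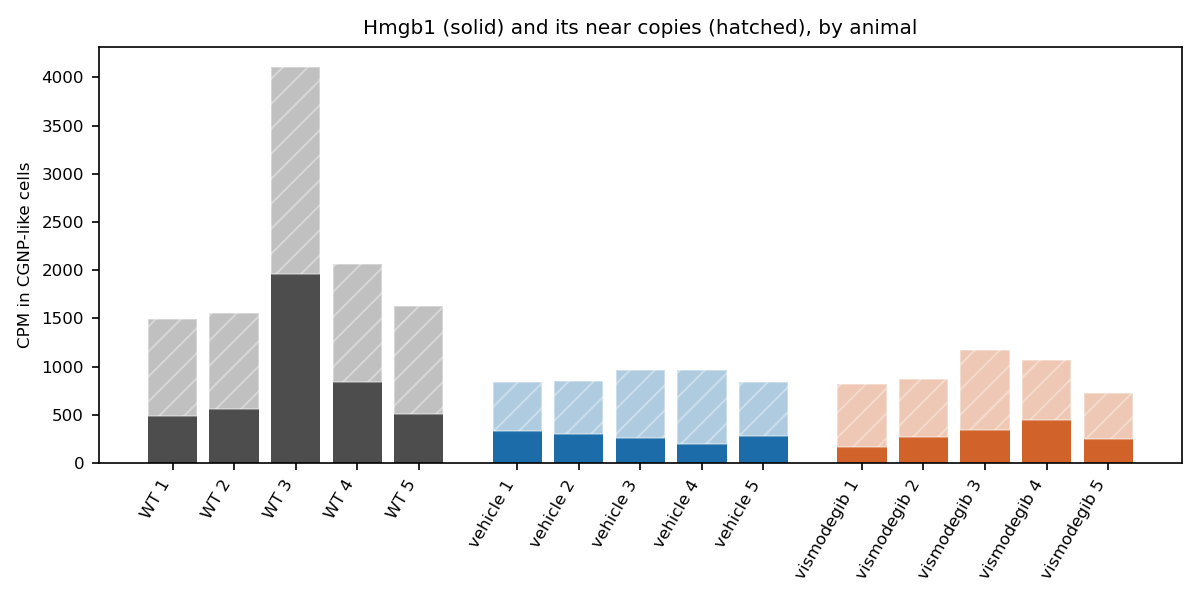
CPM of Hmgb1 in CGNP-like cells (solid) and of its 15 near copies (hatched, stacked on top), 1 bar per animal on a linear axis from 0. The copies made up more of each bar than Hmgb1 itself in all 15 animals, and WT 3 stood highest at 4109 CPM in all.

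The values below are counts per 1000000 UMIs (CPM) summed over the cells of a class in an animal. A level is a level of 1 gene and is not compared between genes. The classes come from clustering the same cells, so differences between stages, phases and cell types are described without a test. Differences between groups were tested with edgeR over all genes of the class, and a gene was called at an adjusted p under 0.05. Members that passed the filter on low counts through 1 group alone are left out of the counts of members called, since one that is high only in that group could differ only one way. In these sums a smaller share of transcribing cells and less RNA per cell cannot be told apart.

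Hmgb2, which encodes the HMG-box protein of dividing cells, fell the most along the granule lineage. In Node A-like cells it stood at 1033, 1383.5, 2798, 1840.5 and 1392 CPM in WT 1 to 5, and at 1072, 1088.5, 1207, 1069 and 993 CPM in vehicle 1 to 5. In Node D-like cells the same animals had 36.2, 114, 221, 212 and 73.4 CPM (WT) and 55.2, 64.1, 34.8, 44.0 and 74.3 CPM (vehicle). The lowest Node A-like value was thus above the highest Node D-like value in each group. On the scale of log2(CPM + 10) the difference of Node A-like over Node D-like was 3.74 ± 0.55 (SD, n = 5) in WT, 4.12 ± 0.45 in vehicle-treated and 4.32 ± 0.46 in vismodegib-treated animals. Most of it lay between Node B-like and Node C-like cells, where the mean went from 1036 ± 462 to 217 ± 98.1 CPM in WT, from 423 ± 44.5 to 90.2 ± 9.45 CPM in vehicle-treated and from 659 ± 107 to 111 ± 34.7 CPM in vismodegib-treated animals.

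Hmgb1, Hmgb3, Hmgn1 and Hmgn2 were also higher in Node A-like than in Node D-like cells in all 15 animals, by less. For Hmgb1 the log2 difference was 1.75 ± 0.19 in WT, 1.62 ± 0.16 in vehicle-treated and 2.00 ± 0.36 in vismodegib-treated animals (SD, n = 5), and with its near copies added 1.81 ± 0.18, 1.73 ± 0.18 and 1.84 ± 0.07. For Hmgn1, the most evenly measured of the HMGN genes, it was 1.69 ± 0.1, 1.5 ± 0.2 and 1.77 ± 0.23. Hmgb3, the X-linked HMGB gene, had 1.22 ± 0.19, 1.21 ± 0.29 and 1.21 ± 0.12. Hmgn2 had 2.24 ± 0.35, 2.89 ± 0.52 and 2.18 ± 0.88, with a wide spread among vismodegib-treated tumors. None of these genes had a mean higher in a later stage than in the stage before it, in any group.

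Hmgn3, which encodes an HMGN protein known from endocrine and neural tissue, did not follow that order. It stood at 73.6, 69.6, 112, 78.4 and 78.6 CPM in Node C-like cells of WT 1 to 5, the lowest stage of the lineage, and averaged 236 ± 23.5 CPM at Node B and 161 ± 23.2 CPM at Node D. In vehicle-treated tumors the means of Node B-like, Node C-like and Node D-like cells were 202 ± 36.8, 112 ± 27.9 and 133 ± 29.7 CPM. In vismodegib-treated tumors they were 197 ± 52.2, 103 ± 12 and 160 ± 32.1 CPM. Hmgn3 was lower in Node C-like than in Node D-like cells in all 15 animals, with log2 differences of -0.89 ± 0.26 in WT, -0.24 ± 0.15 in vehicle-treated and -0.58 ± 0.26 in vismodegib-treated animals.

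**Figure D2:**
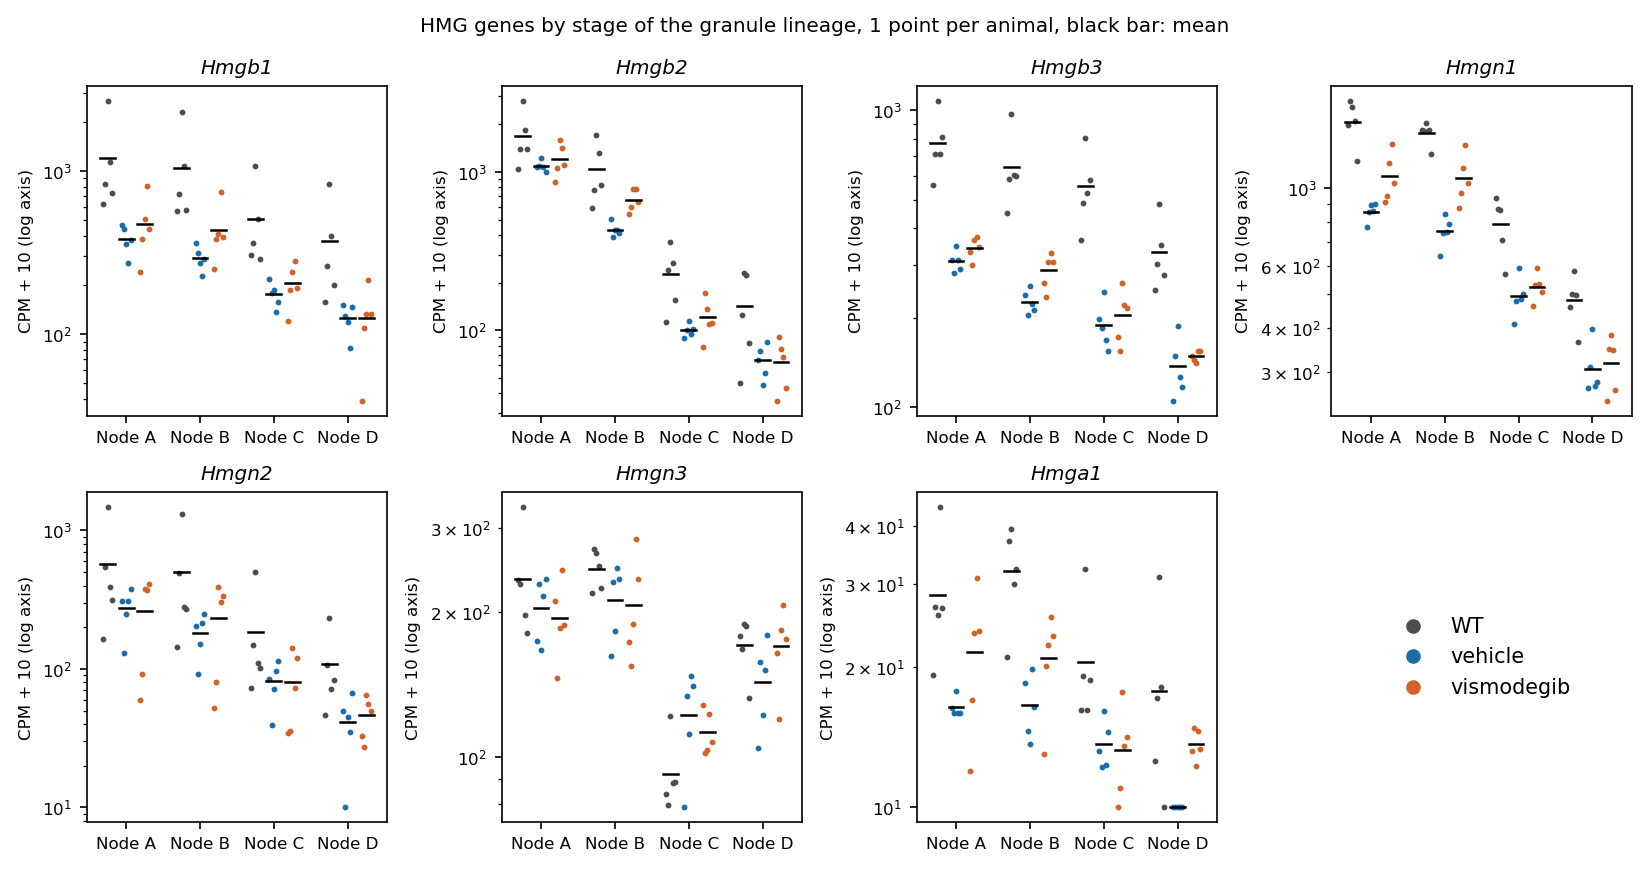
CPM + 10 on a log axis of 7 HMG genes in Node A-like to Node D-like cells, 1 point per animal and a black bar at the mean of 5. Hmgb2 falls most between Node B and Node C, and Hmgn3 alone has its lowest means in Node C in all 3 groups.

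By phase, Hmgb2 again differed most, and in the order G1, S, G2/M. It averaged 260 ± 166, 832 ± 337 and 1732 ± 576 CPM in WT cells called G1, S and G2/M, 109 ± 12.5, 421 ± 55.2 and 1054 ± 93.2 CPM in vehicle-treated and 89.4 ± 27.5, 522 ± 125 and 1203 ± 310 CPM in vismodegib-treated animals. The order held in each of the 15 animals. In G2/M against G1 the log2 difference of Hmgb2 was 2.82 ± 0.38 in WT, 3.16 ± 0.24 in vehicle-treated and 3.61 ± 0.43 in vismodegib-treated animals. The corresponding differences of Hmgn2 were 1.57 ± 0.26, 1.63 ± 0.17 and 1.81 ± 0.78, those of Hmgb1 1.31 ± 0.14, 1.03 ± 0.04 and 1.44 ± 0.21 (1.27 ± 0.14, 1.15 ± 0.10 and 1.54 ± 0.13 with its near copies), those of Hmgn1 0.96 ± 0.16, 0.70 ± 0.14 and 1.37 ± 0.26, and those of Hmgb3 0.68 ± 0.14, 0.76 ± 0.16 and 0.95 ± 0.16. For Hmgn3 they were 0.68 ± 0.02, 0.36 ± 0.09 and 0.42 ± 0.13. All 6 HMGB and HMGN genes were higher in G2/M than in G1 in all 15 animals, and all 6 were higher in S than in G1 in all 15. The phases were not spread evenly over the stages: G2/M cells were mostly Node A-like and Node B-like, and G1 cells mostly Node C-like and Node D-like, in each group.

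Outside the granule lineage the levels were read beside granule RNA that may be free in any droplet. The summed level of the granule genes Atoh1, Barhl1, Neurod1, Cntn2, Nhlh1 and Zic1 in astrocyte-like cells was 22.9% of that in all cells in WT, 39.7% in vehicle-treated and 26.8% in vismodegib-treated animals. It was 12.9%, 21.5% and 9.95% in microglia-like cells, 13.7%, 14.3% and 8.07% in oligodendrocyte-like cells, and 7.79% in the Purkinje-like cells of WT cerebella. Purkinje-like cells, which are large neurons past division, had 28.4 ± 9.82 CPM of Hmgb2 (n = 3 animals, 10 UMIs) and 328 ± 75.3 CPM of Hmgn3. Hmgb1 and Hmgb3 were at 176 ± 86.1 and 163 ± 58.3 CPM in them. Of the GABAergic-like cells of WT cerebella, the cluster led by Pax2, a gene of young interneurons, had 221 ± 91.6 CPM of Hmgb2 and 96.3 ± 24.1 CPM of Hmgn3 (n = 5).

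Microglia-like cells, the immune cells of the brain, had 543 ± 161 CPM of Hmgn1 in WT, 305 ± 18.8 in vehicle-treated and 276 ± 103 in vismodegib-treated animals, but only 1, 17 and 19 UMIs of Hmgn3 in all. The Hmgn3 level there was 4.58 ± 9.16, 32.7 ± 16.1 and 21.6 ± 9.21 CPM. In astrocyte-like cells Hmgn3 was at 250 ± 68.3, 295 ± 37.7 and 199 ± 58.0 CPM, and in oligodendrocyte-like cells at 284 ± 52.7, 260 ± 55.0 and 239 ± 63.4 CPM, above its Node C-like mean of the same group in each case. The Neuron-like cells of the tumors, led by Gabra6 and Cbln3 of mature granule neurons, had 286 ± 170 CPM of Hmgn3 under vehicle and 335 ± 122 CPM under vismodegib (n = 4 animals each). Hmgb2 was at 109 ± 64.1 and 75.4 ± 61.3 CPM in them, on 13 and 20 UMIs.

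The HMGA genes were close to the limit of detection. Hmga2, an oncofetal gene repressed by let-7 in most differentiated tissue, had 15 UMIs in all WT cells, 17 in vehicle-treated and 7 in vismodegib-treated cells. Of these, oligodendrocyte-like cells held 3, 8 and 5, or 5.56, 8.83 and 8.10 CPM over the pooled cells, with UMIs in 1, 4 and 3 animals. CGNP-like cells held 3, 9 and 1 UMIs, or 0.32, 0.254 and 0.0415 CPM. Hmga2 passed the filter on low counts in no comparison and was not tested. Hmga1 had 172, 203 and 210 UMIs in all, of which 139, 196 and 193 in CGNP-like cells. No UMI of Hmga1 was found in the 789 Node D-like cells pooled over the vehicle-treated tumors, which allows a level of up to 2.413 CPM (3 UMIs, the 95% limit for counting error alone). Microglia-like cells of WT cerebella had 7 UMIs of Hmga1 in 4 animals, 34.6 CPM over 97 pooled cells.

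The comparison of vehicle-treated tumors with WT cerebella asks how the tumors differ from the tissue they grow in. In CGNP-like cells 6 of the 7 members tested were lower in the tumors, and Hmgn3 was not called. Of all 12582 genes tested, 23.3% were called lower. The median log2 difference of the 7 members was -1.29, and that of all genes 0.05. For 5 of the 7 tested every tumor was below every WT cerebellum, which held for 15% of all genes tested. These 5 were among the 6 called lower, and of all 2935 genes called lower it held for 1877.

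Hmgb1 stood at 483, 561, 1963, 842 and 512 CPM in WT 1 to 5. In vehicle 1 to 5 it stood at 332, 304, 260.5, 199.98 and 284 CPM. Every tumor was below every cerebellum, and WT 3 was far above the other WT animals. The difference was -1.79 ± 0.35 on the log2 scale (SE, adjusted p = 0.000683). Without WT 3 it was -1.20. With the near copies added, the level was 2172 ± 1106 CPM in WT and 892 ± 66.1 CPM in vehicle-treated animals, and the difference was -1.39 ± 0.26 (adjusted p = 0.000557). Gm10075 alone had 1147 ± 372 and 549 ± 76.4 CPM.

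Hmgb2 stood at 634, 664, 1486, 1034 and 788 CPM in WT 1 to 5 and at 499, 516, 597, 528 and 548 CPM in vehicle 1 to 5. The groups did not overlap, but vehicle 3 came close to WT 1. The log2 difference was -0.88 ± 0.22 (adjusted p = 0.00469), and -0.60 without WT 3. Hmgb3 stood at 450.4, 529, 903, 568 and 618 CPM in WT and at 229, 211, 272, 223 and 218 CPM in vehicle-treated animals. Its groups were widely apart, with a difference of -1.51 ± 0.19 (adjusted p = 1.845e-05).

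Hmgn1, whose protein loosens chromatin at nucleosomes, varied least among the WT animals, with a coefficient of variation of 11.9%. It stood at 1245, 1189, 1323, 1152.5 and 949.9 CPM in WT 1 to 5. In vehicle 1 to 5 it was at 592, 688, 761, 677 and 752 CPM. The groups did not overlap, and the difference was -0.85 ± 0.14 (adjusted p = 0.000206). Hmga1 was at 8.12, 16.0, 24.7, 18.6 and 14.2 CPM in WT and at 6.60, 4.23, 5.47, 5.89 and 5.73 CPM in vehicle-treated animals, again without overlap, with a difference of -1.62 ± 0.31 (adjusted p = 0.000568).

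Hmgn2 was called, but not without WT 3. It stood at 117, 336, 1059.7, 227 and 216 CPM in WT 1 to 5 and at 183, 77.9, 150.3, 195 and 256 CPM in vehicle 1 to 5, so the groups overlapped. The difference was -1.29 ± 0.48 (adjusted p = 0.0394), and without WT 3 it was -0.42 (adjusted p = 0.289). Leaving out WT 2 or vehicle 1, 2, 3 or 4 also ended the call, at differences of -1.35, -1.26, -1.07, -1.23 and -1.32, as did DESeq2, at -1.31 (adjusted p = 0.0712). Hmgn3 stood at 183, 183, 229.8, 177 and 157 CPM in WT and at 134, 194, 146, 194 and 206 CPM in vehicle-treated animals. Its difference of -0.18 ± 0.16 was not called (adjusted p = 0.408).

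WT 3 had the highest level of Hmgb1 and of Hmgn2 among the WT animals in 9 of 9 classes with 5 animals, and of Hmgb2 in 8 of 9. It also had the fewest UMIs per kept cell among them (median 1082.5), the lowest share of Node A-like cells (8.52% of CGNP-like cells, against 11.2% to 23.7% in the other WT animals) and the highest share of Node B-like cells (52.3%, against 28.6% to 37.9%). The part of these in the HMG levels of WT 3 was not tested.

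**Figure D3:**
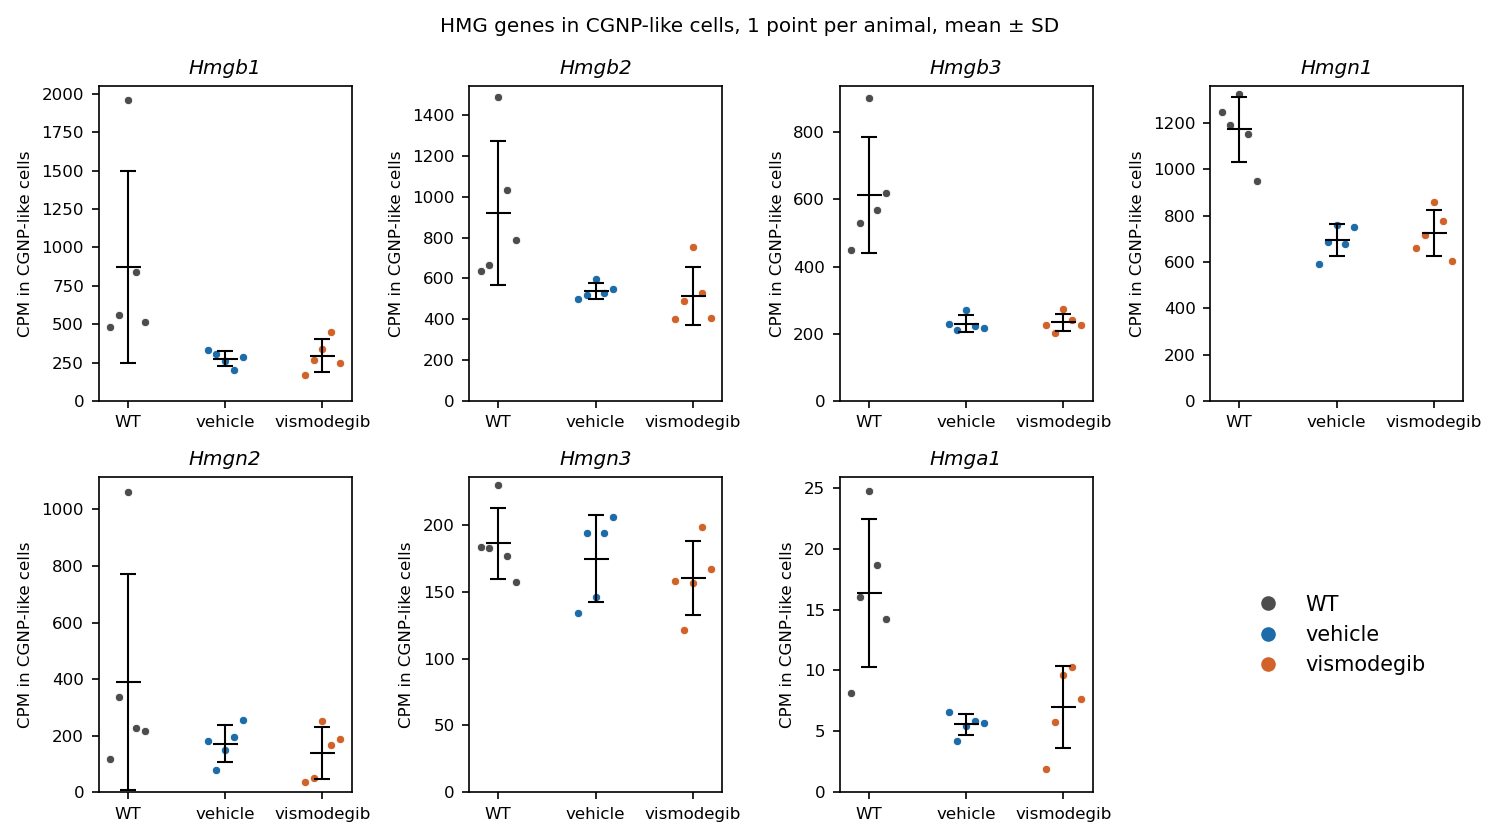
CPM of 7 HMG genes in CGNP-like cells on linear axes from 0, 1 point per animal, with mean ± SD of the 5 animals of a group. The WT points lie above all vehicle points for Hmgb1, Hmgb2, Hmgb3, Hmgn1 and Hmga1, the Hmgn2 groups overlap, and the vehicle and vismodegib points overlap in every panel.

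Stages of WT and of tumor cells came from separate clusterings, and how closely they match was not tested. Hmgb1, Hmgb2, Hmgb3, Hmgn1 and Hmgn2 were lower within each stage and phase. These were 5 of the 6 members counted in Node A-like cells, where 17.6% of all genes were called lower, and again 5 of 6 at Node B (18.9%), Node C (15.8%) and Node D (13.9%). They were also 5 of 6 among cells called G1 (18.9% of all genes), S (18.5%) and G2/M (18.3%). Hmgn3 was not called in any of them. Hmga1 was not tested in Node C-like, Node D-like and G1 cells. In Node A-like, Node B-like, S and G2/M cells it passed the filter through WT alone. Node B-like cells had the largest differences of the stages tested for Hmgb1, Hmgb2, Hmgn1 and Hmgn2, with -2.08 ± 0.33 for Hmgb1 (adjusted p = 9.505e-05; with its near copies -1.67 ± 0.27, adjusted p = 9.078e-05), -1.49 ± 0.25 for Hmgb2 (adjusted p = 0.000167) and -1.10 ± 0.15 for Hmgn1 (adjusted p = 1.68e-05). That these exceed the other stages was not tested. Hmgn2 kept its call in Node B-like cells in all 19 alternatives run, from -1.96 to -0.84. It lost its call without WT 3 in the other stages and in each phase, at -0.46 in Node A-like, -0.58 in Node C-like, -1.10 in Node D-like, -0.47 in G1, -0.66 in S and -0.47 in G2/M cells. Its call also ended without vehicle 2 (-0.99 in Node A-like, -1.15 in G1, -1.05 in G2/M cells) or vehicle 3 (-1.14, -1.25 and -1.20), and in Node A-like and G1 cells without WT 2 (-1.19 and -1.39) or vehicle 1 (-1.14 and -1.29). DESeq2 did not call Hmgn2 in Node A-like (-1.26), Node C-like (-1.50), Node D-like (-1.72), G1 (-1.44) and G2/M cells (-1.31). Hmgb2 in Node D-like cells lost its call without WT 4, at -0.91 against -1.32 with it, and at a clustering resolution of 0.4 (-0.70). In Node C-like cells it lost its call at a resolution of 1.2 (-0.64).

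In cell types outside the granule lineage the comparison was limited by the filter on low counts, since most members passed it there through WT alone. In astrocyte-like cells 2 of 3 counted members, Hmgb1 and Hmgn1, were called lower in vehicle-treated tumors than in WT cerebella (11.5% of all genes), and in oligodendrocyte-like cells 1 of 2, Hmgn1 (13.8%). In microglia-like cells 0 of 2 were called (11.4%) and in vascular fibroblast-like cells 0 of 1 (17.1%). Hmgn1 went from 589 ± 107 to 264 ± 91.2 CPM in astrocyte-like cells (-1.01 ± 0.24, adjusted p = 0.00307) and from 602.5 ± 49.4 to 339.5 ± 86.4 CPM in oligodendrocyte-like cells (-0.93 ± 0.20, adjusted p = 0.00134). Hmgb1 in astrocyte-like cells went from 280.5 ± 132 to 119 ± 26.0 CPM (-1.33 ± 0.34, adjusted p = 0.0054), and lost its call without vehicle 5 (-1.15). With its near copies the difference was -1.25 ± 0.26 (adjusted p = 0.000914). The 9 cases that passed through WT alone are given by their levels. Hmgb3 was at 199 ± 70.4 CPM in WT and 63.8 ± 9.82 CPM in vehicle-treated animals in astrocyte-like cells, and at 269 ± 57.0 and 70.9 ± 24.3 CPM in oligodendrocyte-like cells. Hmgb1 was at 405 ± 158 and 134 ± 23.3 CPM in oligodendrocyte-like cells, and at 362.5 ± 147 and 87.7 ± 33.5 CPM in vascular fibroblast-like cells. Hmgb2 was at 312.5 ± 134 and 101 ± 60.01 CPM in astrocyte-like cells and at 286.5 ± 119.5 and 146 ± 88.6 CPM in oligodendrocyte-like cells, and the animals of the groups overlapped in both. Hmgn2 was at 130 ± 100.3 and 47.9 ± 12.6 CPM in astrocyte-like cells, again with overlap. Hmgn1 was at 650.5 ± 87.8 and 324 ± 122 CPM in endothelial-like cells, and at 702 ± 132 and 287 ± 113 CPM in vascular fibroblast-like cells. In microglia-like cells Hmgb2 and Hmgn1 had differences of -1.06 ± 0.43 (adjusted p = 0.0893) and -0.76 ± 0.27 (adjusted p = 0.0532). Hmgn3 was called in none of the 3 of these classes where it was tested. The summed granule-gene level, as a share of that in all cells, was 22.9% in WT and 39.7% under vehicle in astrocyte-like cells. It was 25.9% and 36.8% in vascular fibroblast-like cells and 17.0% and 9.70% in endothelial-like cells. The part of granule RNA in the differences of these classes was not tested.

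The comparison of vismodegib-treated with vehicle-treated tumors asks what inhibition of SMO changes. It shares the vehicle-treated tumors with the comparison above. None of the 6 members counted was called in CGNP-like cells as a whole, where 13.1% of 12429 genes were called, and Hmga1, which passed the filter through the vehicle-treated tumors alone, was not called either. The median log2 difference of the 6 members was -0.02, and that of all genes 0.

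Hmgb1 stood at 169, 268, 337, 450.3 and 249.8 CPM in vismodegib 1 to 5 (0.12 ± 0.23, adjusted p = 0.795), and with its copies at 929 ± 182 CPM against 892 ± 66.1 CPM under vehicle (0.06 ± 0.15, adjusted p = 0.845). Hmgb2 stood at 399, 490.2, 751, 528 and 407 CPM (-0.06 ± 0.17, adjusted p = 0.873). Hmgb3 stood at 226, 202, 273, 242 and 226 CPM (0.03 ± 0.12, adjusted p = 0.928). Each of these sets of 5 tumors overlapped the vehicle-treated tumors. Hmgn1 stood at 660.5, 715, 859, 775 and 605 CPM (0.06 ± 0.14, adjusted p = 0.827). Hmgn2 stood at 35.7, 50.9, 253, 168 and 187 CPM (-0.30 ± 0.46, adjusted p = 0.738). Hmgn3 stood at 158, 121, 156, 198 and 167 CPM (-0.12 ± 0.17, adjusted p = 0.722). Hmga1, at 1.90, 5.78, 9.60, 10.3 and 7.64 CPM, had the widest spread relative to its mean after Hmgn2 (0.39 ± 0.34, adjusted p = 0.528).

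These pooled values hold together cells in other proportions. Node D-like cells made up 19.3% to 53.1% of CGNP-like cells in vismodegib-treated tumors and 3.14% to 9.82% in vehicle-treated tumors, and cells called G1 50.2% to 69.2% and 41.1% to 48.1%. Within stages, 1 member was called. In Node B-like cells Hmgb2 stood at 496, 379, 422, 419 and 399 CPM in vehicle 1 to 5 and at 529, 594, 772, 766 and 634 CPM in vismodegib 1 to 5. Every vismodegib-treated tumor was above every vehicle-treated tumor, with a difference of 0.66 ± 0.15 (adjusted p = 0.0278). It was 1 of 7 members called, where 3.01% of 9677 genes were called, and the members' median was 0.52 against 0 for all genes. Hmgb2 lost the call, with the difference kept between 0.52 and 0.65, at a coarser clustering (resolution 0.4, 0.52) and without vehicle 2 (0.63), vehicle 5 (0.65), vismodegib 3 (0.60) or vismodegib 4 (0.59). An earlier look at these data divided the tumors, by their expression and not by any label, into a set of vehicle 1 and 3 with vismodegib 1, 2 and 3 and a set of the other 5. Within them the difference of Hmgb2 on the scale of log2(CPM + 10) was 0.44 and 0.79. For Hmgn1 it was 0.43 and 0.62, for Hmgb1 0.12 and 0.98 and for Hmgb3 0.11 and 0.59. For Hmga1 it was 0.18 and 0.54, for Hmgn2 -0.58 and 0.92 and for Hmgn3 -0.01 and 0.12. The mix of phases within Node B-like cells also differed. Pooled over the tumors, 2654, 3411 and 1996 of 8061 cells were called G1, S and G2/M under vehicle. Under vismodegib these were 219, 1182 and 711 of 2112 cells. The part of this mix in the difference of Hmgb2 was not tested.

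Hmgn1 in Node B-like cells stood at 631, 736.5, 830.0, 739.9 and 779 CPM in vehicle 1 to 5 and at 869, 954, 1129, 1314.5 and 1018.5 CPM in vismodegib 1 to 5. The groups did not overlap, but the difference of 0.52 ± 0.16 did not pass over all genes (adjusted p = 0.105). With DESeq2 it was 0.53 (adjusted p = 0.0266). Hmgb1 had 0.63 ± 0.24 (adjusted p = 0.232; with its near copies 0.56 ± 0.17, adjusted p = 0.109), Hmgb3 0.38 ± 0.15 (adjusted p = 0.228) and Hmga1 0.77 ± 0.39 (adjusted p = 0.377) in Node B-like cells, with overlapping groups.

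No member was called in the other stages: 0 of 7 in Node A-like cells (2.29% of all genes called), 0 of 6 in Node C-like cells (1.28%) and 0 of 4 in Node D-like cells (0.0489%). In Node A-like cells Hmgn1 averaged 846 ± 51.2 CPM under vehicle and 1070 ± 176 CPM under vismodegib without overlap (0.34 ± 0.14, adjusted p = 0.341). By phase, 0 of 6 members were called among G1 cells (22.6% of all genes), 0 of 6 among S cells (2.7%) and 0 of 6 among G2/M cells (2.63%). Among G2/M cells Hmgn1 stood at 761 to 903 CPM under vehicle and at 928 to 1345 CPM under vismodegib, again without overlap (0.35 ± 0.15, adjusted p = 0.346). No member was called in the other cell types: 0 of 3 in the microglia-like class (0.218% of all genes), 0 of 3 in the astrocyte-like class (1.34%), 0 of 2 in the oligodendrocyte-like class (3.91%), 0 of 1 in the vascular fibroblast-like class (1.12%) and 0 of 1 in the endothelial-like class, where edgeR called 0% of 713 genes, 39 of them at an unadjusted p under 0.05. Hmgn3 in astrocyte-like cells was at 250.2 to 338 CPM in 4 vehicle-treated and at 98.1 to 246 CPM in 5 vismodegib-treated animals, without overlap, but its difference of -0.45 ± 0.25 was not called (adjusted p = 0.418).

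**Figure D4:**
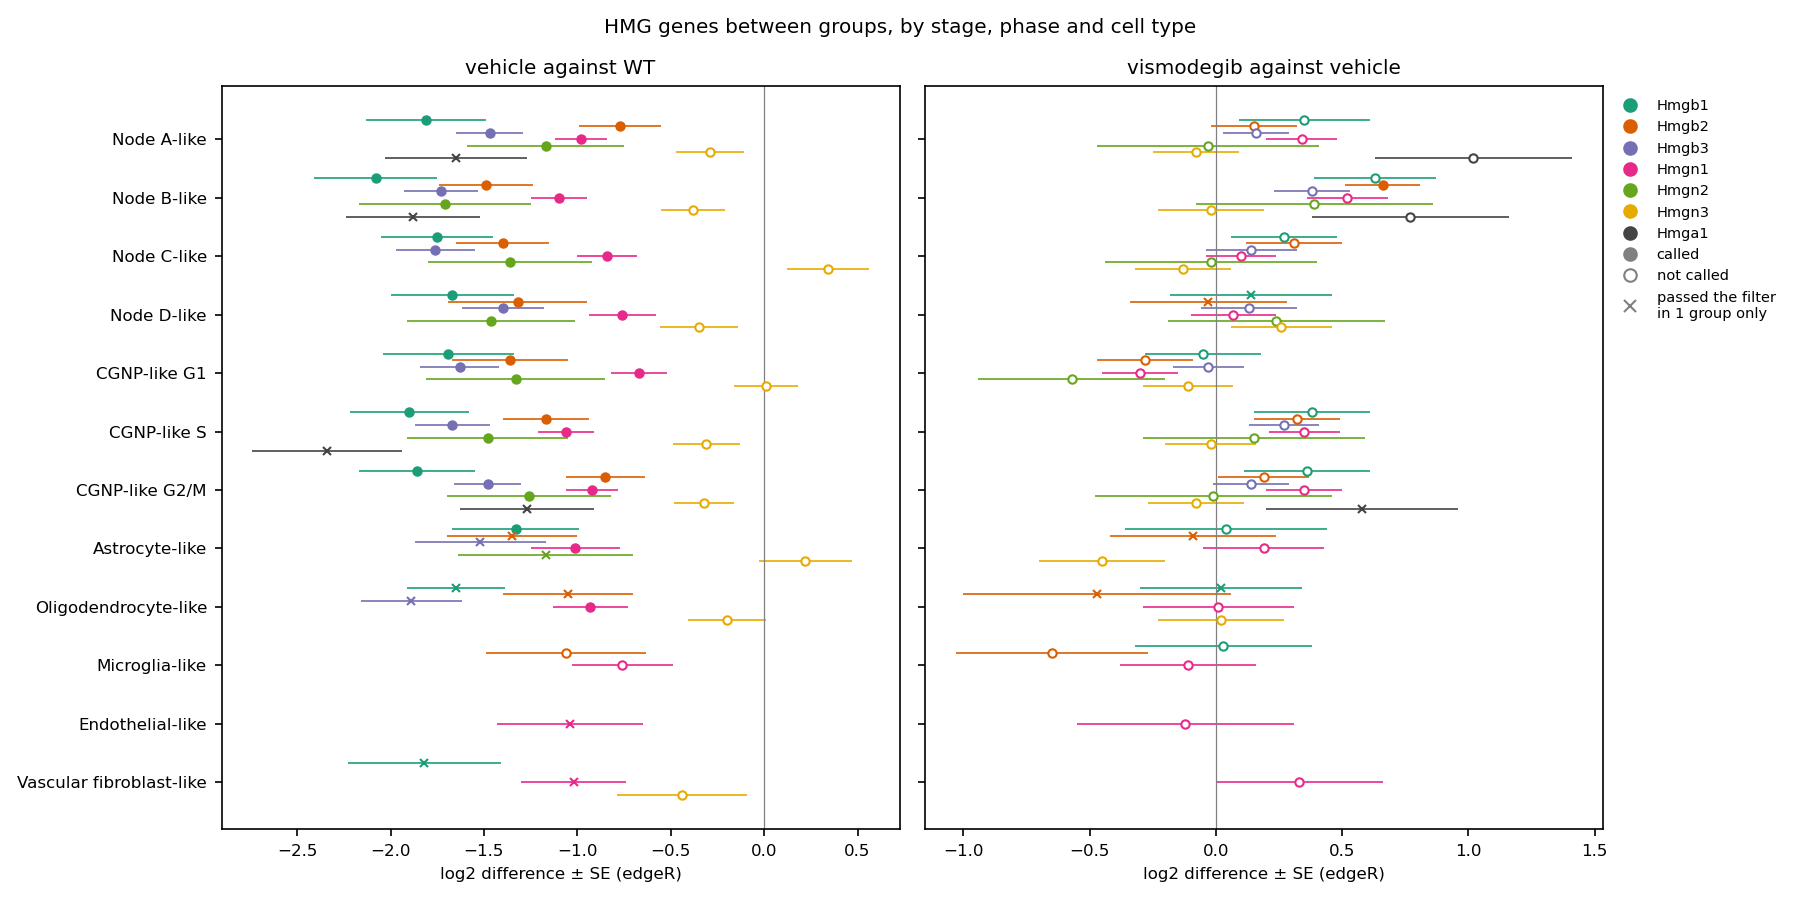
Log2 difference ± SE from edgeR of the HMG genes tested in each stage, phase and cell type, vehicle-treated tumors against WT cerebella on the left and vismodegib-treated against vehicle-treated tumors on the right, with filled points for called genes and crosses for genes that passed the filter on low counts through 1 group alone. On the left every point but some of Hmgn3 lies below 0, and on the right Hmgb2 in Node B-like cells is the only filled point.

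Node B-like cells were also taken apart by phase. Since this was done after the levels by stage and phase had been seen, the values are given with no test. The median log2 difference between vismodegib and vehicle was 0.69 over the members in G1, 0.45 in S and 0.31 in G2/M cells. Hmgn2, which passed the filter in 1 group only, is left out of the G2/M median. The largest difference was 1.36 in G1 cells, and none exceeded 0.54 in S or 0.48 in G2/M cells. In Node B-like cells called G1, Hmgb2 stood at 155, 173, 172, 204 and 165 CPM in vehicle 1 to 5. In vismodegib 1 to 5 it stood at 529, 276, 412, 485 and 568.5 CPM. The lowest vismodegib-treated tumor was above the highest vehicle-treated tumor. Hmgb1 had 224 ± 32.8 CPM under vehicle and 421 ± 183 CPM under vismodegib in these cells, with vismodegib 1 below all vehicle-treated tumors. Node B-like cells called G1 were 2654 cells of vehicle-treated but 219 cells of vismodegib-treated tumors, or 31.9% ± 7.20 and 3.90% ± 1.79 of the G1 cells.

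The difference between phases was itself compared between groups, as an interaction of phase and group with the animal as a block. Under vismodegib the difference of S over G1 was larger than under vehicle for 6 of 7 members, where it was larger for 16.3% of 11304 genes, and that of G2/M over G1 for 4 of 7, where it was larger for 19.2%. The members' medians were 0.69 and 0.61, and those of all genes 0.05 and 0.04. Hmgn1 had a log2 difference of S over G1 of 0.43 ± 0.10 under vehicle and 1.10 ± 0.21 under vismodegib, with no overlap between tumors, and an interaction of 0.69 ± 0.08 (adjusted p = 3.8e-09). In G2/M its interaction was also 0.69 ± 0.08 (adjusted p = 1.91e-09), and both calls were kept in 19 of 19 alternatives. Hmgb2 had interactions of 0.75 ± 0.14 in S (adjusted p = 3.29e-05) and 0.61 ± 0.13 in G2/M (adjusted p = 0.000266), though its tumors overlapped. Hmgb1 had 0.46 ± 0.09 and 0.44 ± 0.09 (adjusted p = 7.83e-05 and 7.59e-05) without overlap in either phase, and with its near copies 0.51 ± 0.07 and 0.39 ± 0.07 (adjusted p = 1.275e-07 and 1.022e-05). With phases cut at the median its G2/M interaction was 0.22 and not called (adjusted p = 0.0863). Within Node B-like cells alone, the mean log2 difference of S over G1 was not larger but smaller under vismodegib than under vehicle for 5 of these 6 members. It was 1.14 ± 0.29 under vehicle and 0.29 ± 0.45 under vismodegib for Hmgb2, 0.33 ± 0.16 and -0.02 ± 0.35 for Hmgb1 (0.28 ± 0.13 and 0.08 ± 0.22 with its near copies), 0.10 ± 0.17 and -0.11 ± 0.31 for Hmgb3, 0.38 ± 0.32 and -0.02 ± 0.51 for Hmgn2 and -0.14 ± 0.21 and -0.18 ± 0.90 for Hmga1. For Hmgn1 it was 0.08 ± 0.07 and 0.18 ± 0.27. These differences within a stage were not tested, and the spread of the vismodegib-treated tumors was wide.

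For Hmgn2 the tumors overlapped widely. Its log2 difference of S over G1 was 1.01 ± 0.23 under vehicle and 1.36 ± 0.65 under vismodegib, and that of G2/M over G1 1.63 ± 0.17 and 1.81 ± 0.78, so the means differed by less than the SD of the vismodegib-treated tumors. The fitted interactions were 0.84 ± 0.15 in S (adjusted p = 2.19e-05) and 0.71 ± 0.14 in G2/M (adjusted p = 8.96e-05), which DESeq2 did not call (0.55, adjusted p = 0.0657, and 0.41, adjusted p = 0.166). DESeq2 also did not call that of Hmgb2 in G2/M (0.44, adjusted p = 0.0586). Hmga1 and Hmgb3 were called in S but not in G2/M. Hmga1 in S had 1.36 ± 0.41 (adjusted p = 0.00976) and lost the call in 4 of 19 alternatives: without vismodegib 4 (1.24), at resolution 0.4 (1.18), with phases from all UMIs (1.02) and with phases cut at the median (0.81). Hmgb3 in S had 0.32 ± 0.10 (adjusted p = 0.00896) and lost it in 9 of 19: at resolution 0.4 (0.27), with DESeq2 (0.27), with phases cut at the median (0.17) and without vehicle 1 (0.26), vehicle 2 (0.24), vehicle 3 (0.23) and vismodegib 3 (0.25), 4 (0.27) or 5 (0.21). Hmgn3 was called in neither phase (0.13 ± 0.10, adjusted p = 0.384, and 0.04 ± 0.09, adjusted p = 0.78). The G1 cells of the groups were of other stages: Node D-like cells were 12.2% ± 6.54 of them under vehicle and 51.0% ± 15.9 under vismodegib. The part of this in the interactions was not tested.

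Between vehicle-treated tumors and WT cerebella, S against G1 was called for 1 of 6 members (6.19% of genes) and G2/M against G1 for 2 of 6 (8.58%), without Hmga1, which passed the filter through WT alone. Hmgn1 differed less between S and G1 in the tumors than in WT, by -0.37 ± 0.07 (adjusted p = 0.000187), in 19 of 19 alternatives. In G2/M its interaction was -0.22 ± 0.07 (adjusted p = 0.0354), which 8 of 19 alternatives did not keep: upper limits at 4 SD (-0.21), resolution 0.4 (-0.15), resolution 1.2 (-0.10) and leaving out WT 2 (-0.20), WT 4 (-0.19), vehicle 2 (-0.20), vehicle 3 (-0.19) or vehicle 5 (-0.22). Hmgb2 differed more between G2/M and G1 in the tumors, by 0.39 ± 0.11 (adjusted p = 0.0143), and lost the call with DESeq2 (0.41) and without WT 3 (0.23), WT 4 (0.36) or vehicle 3 (0.32).

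**Figure D5:**
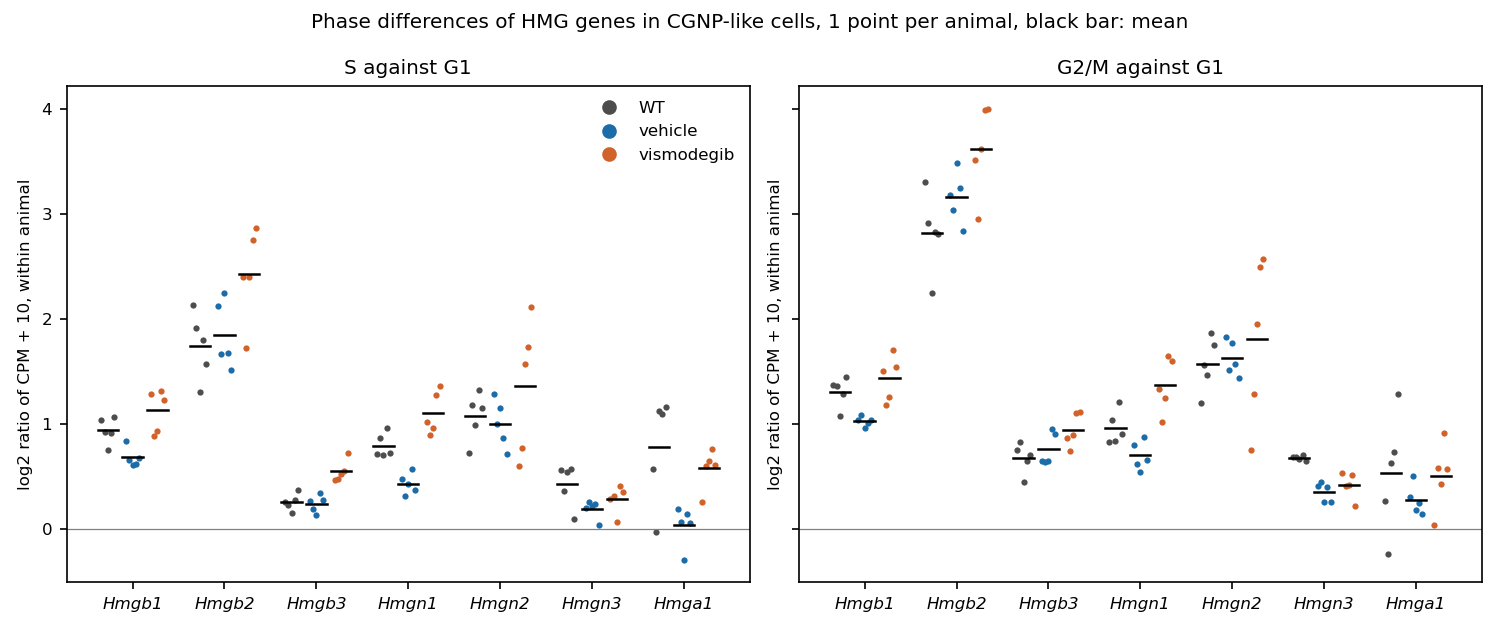
Log2 ratio of CPM + 10 of S (left) and G2/M (right) over G1 within each animal for 7 HMG genes in CGNP-like cells, 1 point per animal and a black bar at the mean of 5. Hmgb2 has the largest ratios, and for Hmgn1 all vismodegib points lie above all vehicle points in both panels.

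With the share of each stage fixed at its mean over the 10 tumors (17.05% Node A-like, 32.94% Node B-like, 30.31% Node C-like, 19.69% Node D-like), Hmgn1 stood at 594 ± 59.8 CPM under vehicle and 747 ± 104 CPM under vismodegib, a log2 difference of 0.33 (exact permutation test, 2-sided, p = 0.0159). The differences here are between means of log2 CPM, and of log2(CPM + 10) for Hmga1. The mix of phases within a stage was not fixed. Hmgb2 stood at 363 ± 18.45 and 465.5 ± 90.5 CPM, a difference of 0.34 (exact permutation p = 0.0397), which missed 0.05 when any animal but vismodegib 1 was left out (0.26 to 0.36) and with equal weights (0.27, p = 0.0952). For Hmgb3 the exact permutation p was 0.0714 (0.22), for Hmga1 0.127 (0.24), for Hmgb1 0.317 (0.32), for Hmgn2 0.889 (-0.14) and for Hmgn3 0.992 (0.00). The linear means of Hmgn2 went the other way, with 130 ± 48.2 CPM under vehicle and 145 ± 97.0 CPM under vismodegib. With its near copies Hmgb1 had a difference of 0.34 (exact permutation p = 0.0317). These p-values are not adjusted over the 7 members. Between vismodegib and vehicle the groups overlapped for every member tested, and for Hmgb1 with its near copies. The test was run on the members only, so no share over all genes stands beside it. Without a fixed mix, every vehicle-treated tumor was below every WT cerebellum for 15% of all genes tested in CGNP-like cells. The smallest p that 5 animals against 5 can give is 0.007937, and it was reached between vehicle-treated tumors and WT cerebella for Hmgb1 (-1.53), Hmgb3 (-1.46), Hmgb2 (-0.89), Hmgn1 (-0.83) and Hmga1 (-0.78, from 15.1 ± 5.71 CPM in WT to 4.36 ± 0.709 CPM, a change that the added 10 CPM makes smaller). With its near copies Hmgb1 had -1.26 (exact permutation p = 0.007937). Hmgn2 (-1.03, exact permutation p = 0.119) and Hmgn3 (-0.12, exact permutation p = 0.46) did not pass there. Leaving out WT 1 brought Hmgn2 past the threshold in that comparison (-1.37, exact permutation p = 0.0317). Between vismodegib and vehicle the exact permutation p fell under 0.05 without vismodegib 1 for Hmgb1 (0.53, p = 0.0476) and Hmga1 (0.36, p = 0.0159), and without vehicle 3 or vismodegib 2 for Hmgb3 (0.29 in both, p = 0.0317).

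Across 32 means of a class in a group, the patterns of the members were compared with those of 8317 genes by Pearson's r of log2(CPM + 10), as a description, since the means share libraries and cells. Most like Hmgb2 were Spc24 (0.937), 2810417H13Rik (0.934) and Tk1 (0.933), a kinetochore gene, a gene of replication-linked repair and the gene of thymidine kinase. Most like Hmgb1 were its copy Gm10075 (0.965), H2afz (0.949), which encodes histone variant H2A.Z, and Gm9800 (0.941). For Hmgb3 they were Hnrnpa1 (0.952) and the chaperonin genes Cct2 (0.947) and Cct6a (0.927). For Hmgn1 they were Snrpe (0.919), Gm10075 (0.916) and Gm9800 (0.913), and for Hmgn2 Gm10075 (0.964), Anp32e (0.940) and Lmnb1 (0.930). Hmgn3 stood apart, with Casc4 (0.854), Mageh1 (0.782) and Ndufv2 (0.775). Among Hmgb1, Hmgb2, Hmgb3, Hmgn1 and Hmgn2 the pairwise r was 0.653 to 0.949, and with Hmgn3 it was 0.0659 to 0.351.

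Genes of related lists were counted beside the members. In CGNP-like cells of vismodegib-treated against vehicle-treated tumors, where 13.1% of all genes were called, 1 of 14 tested genes of other HMG-box and HMGN proteins was called, and it was lower: Tox3, an HMG-box gene of neurons, went from 270.1 ± 29.98 to 147 ± 26.1 CPM (-0.88 ± 0.14, adjusted p = 0.000978). None of 7 linker histone genes was called. Of 12 genes of the SET complex and histone chaperones, Apex1, a DNA repair endonuclease, was lower (-0.62 ± 0.14, adjusted p = 0.0079), and of 9 genes of heterochromatin, cohesin and insulator proteins Cbx5, which encodes HP1 alpha, was lower (-0.47 ± 0.13, adjusted p = 0.0262). Of the HMGB1 receptors only Cxcr4 was tested, and it went from 64.8 ± 28.1 to 17.2 ± 7.13 CPM (-1.91 ± 0.31, adjusted p = 0.00136). None of 3 tested genes of the HMGA2 network was called. In the interaction of phase and treatment, by contrast, 10 of 12 SET complex and chaperone genes had a larger difference of S over G1 (16.3% of all genes) and 11 of 12 of G2/M over G1 (19.2%) under vismodegib, with medians of 0.45 and 0.43 against 0.05 and 0.04 for all genes. Of the other HMG-box and HMGN genes 5 and 6 of 14 were larger, and 1 was smaller in G2/M, where 12.2% of all genes were. Of the linker histone genes 0 and 1 of 7 were larger, with medians of 0.11 and 0.10. Of the heterochromatin, cohesin and insulator genes 3 and 2 of 9 were larger, with medians of 0.02 in both. Of the HMGA2 network 1 of 3 was larger in each, and Cxcr4 was larger in both.

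In vehicle-treated tumors against WT cerebella the related lists went both ways, and 21.3% of all genes were called higher and 23.3% lower. Of 14 other HMG-box and HMGN genes 3 were higher, namely Tox3 (1.27 ± 0.17, adjusted p = 4.1e-05), Pbrm1 of a chromatin remodeler (1.16 ± 0.16, adjusted p = 5.23e-05) and Ssrp1 of the FACT chaperone (0.78 ± 0.11, adjusted p = 7.51e-05), and 2 were lower. Of 7 linker histone genes Hist1h1b (-2.74 ± 0.23, adjusted p = 5.28e-07) and Hist1h1e (-2.44 ± 0.26, adjusted p = 4.97e-06) were lower and H1fx was higher, at 211 ± 59.5 against 56.7 ± 11.1 CPM (1.79 ± 0.19, adjusted p = 5.3e-06). Of 12 SET complex and chaperone genes 5 were lower and 1 higher, with Npm1 at -0.64 ± 0.14, Anp32e at -0.60 ± 0.13 and Set at -0.71 ± 0.16. Of 9 heterochromatin, cohesin and insulator genes 4 were higher and 2 lower, with Ctcf, the insulator protein, at 0.89 ± 0.14, Cbx5 at 0.59 ± 0.13 and the cohesin gene Stag1 at -0.57 ± 0.13. Cxcr4 was higher (1.05 ± 0.27, adjusted p = 0.00545), and of 2 tested genes of the HMGA2 network Igf2bp3 was lower (-0.57 ± 0.20, adjusted p = 0.0279). The median log2 differences of these 5 lists with more than 1 tested gene lay between -0.40 and 0.26, against -1.29 for the members and 0.05 for all genes.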

How the data were processed

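The authors deposited raw UMI counts per gene and cell barcode, 1 table per animal, from Drop-seq libraries aligned with STAR to mm10 with Cre and SmoM2/EYFP sequences added, before their own quality criteria were applied. WT libraries were run on a PDMS device and tumor libraries on a glass device with human HEK 293 cells added. The 8 members, the related lists and the tests were chosen with earlier results of these data known. A barcode was kept from 500 UMIs and 500 genes upward, unless its UMIs, genes or mitochondrial share exceeded the animal's median by over 5 SD. No doublet caller was run. Tumor cells and WT cells were clustered separately with igraph 0.11.9 (30 neighbors, resolution 0.8) without the members, the related lists, hemoglobin genes and near copies. A near copy was a gene sharing over 50% of its runs of 25 bases with a member. Phase scores were taken from cells thinned to 500 UMIs and cut at 0, and 95.32% of cells had the same call from all UMIs. Counts were summed per animal and class of at least 10 cells.

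Sums were compared with edgeR 4.0.16 (R 4.3.3): TMM scaling, its filter on low counts (at least 10 counts at the median depth in as many animals as the smaller group), the quasi-likelihood test and Benjamini-Hochberg adjustment over all genes tested in the class. All adjusted p-values are from this test unless DESeq2 1.42.0 is named. The fixed mix of stages was compared with the exact permutation test in scipy 1.17.1. In each comparison the members that passed the filter are given, with the 3 genes of lowest adjusted p of each related list and, for members with a mean over 20 CPM, the 3 genes of highest correlation. On simulated counts with 200 of 12429 genes changed by a log2 change of 1, the CGNP-like comparison of vismodegib with vehicle recovered 52% with 8 false calls. The changed genes were drawn at random from genes of all levels, so this share is not that of the members. No label states a pairing of animals. In the titles, however, vehicle and vismodegib animals of the same number have adjacent serial numbers. The paper describes the injected tumor mice as littermates. Whether they were handled in pairs is not given, and the main fits use no pairing. A replicate block was run as an alternative. Deviations of animals of the same number correlated from -0.146 to 0.406 between tumor groups and from -0.185 to 0.0143 between vehicle and WT. Alternatives changed the tool, scaling, filters, clustering, phase cut and animals, and added terms for 2 divisions of the tumors that no label calls a batch: the serial number in the titles (up to 10 or above) and 2 sets that an earlier analysis found in the expression of these tumors (set 1 is vehicle 1 and 3 and vismodegib 1, 2 and 3, and set 2 the others). The sets come from the counts tested here, so a p with their term is no independent check.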

Additional observations from a re-analysis of the deposited data

Results flagged for a closer look

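Of 146 groups of 4 or 5 animals tested for 1 animal far from the others, 14 held one, and chance flags about 1 in 20 groups. WT 3 was the far animal for Hmgb1 in CGNP-like (1963 CPM), Node A-like (2672 CPM) and Node C-like cells (1068 CPM), for Hmgn2 in CGNP-like (1060 CPM), Node C-like (487 CPM) and oligodendrocyte-like cells (535 CPM), and for Hmgn3 (112 CPM) and Hmga1 (22.3 CPM) in Node C-like cells. WT 5 was low for Hmgn1 in Node B-like (1234 CPM) and for Hmgn3 in astrocyte-like cells (129.9 CPM). Vehicle 3 was high for Hmga1 in Node A-like cells (7.73 CPM). Vehicle 5 stood apart for Hmga1 in astrocyte-like cells (2.63 CPM), on the only UMI of the group, 1 in all. In astrocyte-like cells vismodegib 3 was low for Hmgn3 (98.1 CPM) and vismodegib 5 stood apart for Hmga1 (1.72 CPM), again on 1 UMI.

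The difference between phases itself differed between groups, by the interaction test, in 13 cases. Between vismodegib and vehicle the log2 interaction of S over G1 was 1.36 for Hmga1, 0.46 for Hmgb1, 0.75 for Hmgb2, 0.32 for Hmgb3, 0.69 for Hmgn1 and 0.84 for Hmgn2, and that of G2/M over G1 was 0.44 for Hmgb1, 0.61 for Hmgb2, 0.69 for Hmgn1 and 0.71 for Hmgn2. Between vehicle and WT it was -0.37 for Hmgn1 in S, 0.39 for Hmgb2 in G2/M and -0.22 for Hmgn1 in G2/M.

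Gm10075, which is no member, was looked at because 84.26% of its runs of 25 bases are shared with Hmgb1 transcripts. It held 45781 UMIs, more than Hmgb1 itself.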

How the results depend on the processing

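Of the counts of called genes, 245 stayed within 1.5 times of the value given and 64 did not, over the alternatives that kept all animals, and 282 and 48 when 1 animal was left out. Of the members' log2 differences fitted across all genes, 785 kept direction and side of the threshold, 33 lost and 2 gained a call and 7 changed sign, and when 1 animal was left out 793, 60, 0 and 13. Stages and cell types are named here by their classes. The members' calls that were lost without 1 animal are named with their results above, except those of members that passed the filter on low counts through 1 group alone and of Node B cells divided by phase, which are not counted there. With all animals kept, DESeq2 and the settings named above ended others, and the rest of the 33 were these. Between vehicle and WT, Hmgn2 lost its call in Node D at resolution 0.4 (-1.12) and in G1 cells with phases cut at the median (-1.03). A further 3 belonged to Hmgn1 in the endothelial class, which passed the filter through WT alone and is given by its levels. With phases cut at the median the call was lost for the G2/M interaction of Hmgb2 between vehicle and WT (0.16). Both gains were of Hmgn1 in Node B between vismodegib and vehicle, with DESeq2 (0.53) and with the term for the 2 sets (0.55). The cause was not tested in any of these. The endothelial class held 56 to 86 cells per group, and Hmga2 had too few UMIs to be tested in any class, CGNP-like cells included.

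Without the filter on low counts, genes called between vismodegib and vehicle numbered 401 against 226 in Node A, 445 against 291 in Node B, 331 against 120 in Node C, 60 against 3 in Node D, 485 against 270 in S, 104 against 32 in the astrocyte class, 281 against 125 in the oligodendrocyte class, 53 against 4 in the microglia class, 3 against 0 in the endothelial class and 16 against 6 in the vascular fibroblast class. Between vehicle and WT they numbered 5125 against 3203 in Node A, 5897 against 3512 in Node B, 4230 against 2641 in Node C, 5506 against 3669 in G1, 5251 against 3237 in S, 5440 against 3497 in G2/M, 982 against 611 in the astrocyte class, 1296 against 653 in the oligodendrocyte class, 343 against 198 in the microglia class and 472 against 248 in the vascular fibroblast class. With a term for the 2 sets the counts between vismodegib and vehicle, in the same order of stages, were 455, 638, 390 and 20, and 547 in S, 469 against 262 in G2/M, 223 in the oligodendrocyte class, 10 in the vascular fibroblast class, 308 against 149 in Node B G1, 292 against 140 in Node B S and 124 against 34 in Node B G2/M cells. With a term for the serial number they were 380, 497, 323 and 15 in the stages, 446 in S, 66 in the astrocyte class and 9 in the microglia class. DESeq2 called 459 in Node B, 292 in Node C, 11 in Node D, 52 in the astrocyte class, 10 in the microglia class and 3 in the vascular fibroblast class. Upper limits at 4 SD gave 61 in Node C, 5 in Node D, 61 in the oligodendrocyte class and 13 in the vascular fibroblast class. Resolution 0.4 gave 2 in Node C and 36 in Node D, and resolution 1.2 gave 23 in Node C and, for the interactions between vehicle and WT, 416 against 710 in S and 643 against 984 in G2/M. With at least 30 cells per class, 73 were called in the oligodendrocyte class and 1 in the microglia class. With phases cut at the median, 423 were called in S and 593 in G2/M cells, and 1932 against 3551 in the G2/M interaction of vismodegib and vehicle.

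With a replicate block, 191 genes were called between vismodegib and vehicle in Node C, 18 in Node D, 208 in the oligodendrocyte class, 12 in the microglia class and 4 in the endothelial class, and 101 against 167 between vehicle and WT in the endothelial class. Hmgn2 lost its call between vehicle and WT in CGNP-like cells under the block, at -0.86 (adjusted p = 0.137, edgeR), as it did in Node A (-0.85), G1 (-1.01) and G2/M cells (-0.88).

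Among the members, the difference between vismodegib and vehicle in CGNP-like cells turned to -0.04 for Hmgb3 and -0.01 for Hmgn1 without the filter on low counts and to -0.03 for Hmgb3 at resolution 0.4, and that between vehicle and WT to 0.03 for Hmgn3 without the filter. Hmgn3 in Node B, -0.02 between vismodegib and vehicle, was 0.09 with the term for the sets, 0.02 at 4 SD and 0.04 at resolution 1.2. Hmgb2 in Node B was 0.52 at resolution 0.4, Hmgn2 between vehicle and WT was -1.31 with DESeq2, Hmgb2 at a fixed mix with equal weights was 0.27, and Hmgb1 at a fixed mix with its near copies was 0.34, past the threshold.

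When 1 animal was left out, the genes called between vismodegib and vehicle ranged from 185 to 292 in Node B, 61 to 128 in Node C, 0 to 7 in Node D, 160 to 297 in S, 174 to 257 in G2/M, 0 to 72 in the astrocyte class, 29 to 263 in the oligodendrocyte class, 0 to 10 in the microglia class, 0 to 2 in the endothelial class, 0 to 15 in the vascular fibroblast class and 67 to 124 in Node B G1 cells, and between vehicle and WT from 105 to 171 in the endothelial class. The log2 difference between vismodegib and vehicle ranged from -0.11 to 0.27 for Hmgb1, -0.23 to 0.03 for Hmgb2, -0.03 to 0.09 for Hmgb3 and -0.01 to 0.11 for Hmgn1 in CGNP-like cells, and from 0.59 to 0.73 for Hmgb2 and -0.18 to 0.09 for Hmgn3 in Node B. Hmgn2 between vehicle and WT ranged from -1.52 to -0.42. At a fixed mix of stages the ranges between vismodegib and vehicle were 0.11 to 0.53 for Hmgb1, 0.26 to 0.44 for Hmgb2, 0.18 to 0.29 for Hmgb3, -0.42 to 0.29 for Hmgn2 and 0.17 to 0.36 for Hmga1, and between vehicle and WT -1.37 to -0.58 for Hmgn2.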
